A study of Drosophila melanogaster with 27 samples.

Results

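The mRNAs of 10 muscle contractile proteins were followed through an RNA immunoprecipitation of Fmr1 from heads of fly pupae: Mhc, Mlc1, Mlc2, Prm, Tm1, Tm2, up, wupA, bt and sls. They were picked by their FlyBase symbols as sarcomere genes without the actins, and are 10 of the 17807 genes in the count table. Flies were Ythdf#0/#0 mutants (stock CG6422) or w1118 as the wild type. Ythdf binds mRNAs that carry the m6A mark, and Fmr1 is the RNA-binding protein whose human counterpart is lost in fragile X syndrome. Heads were pooled, 200 for each genotype, and every lysate gave an input, a pull-down with a pair of mouse antibodies against Fmr1 and a pull-down with mouse IgG. The groups were Fmr1 libraries (4 mutant, 5 wild type), IgG libraries (4 mutant, 5 wild type) and inputs (4 mutant, 5 wild type), with replicates numbered 1, 2, 3 and 7 in the mutant and also 5 in the wild type. The labels give no pupal stage or sex, do not describe the mutation, and do not say whether replicates came from separate crosses, so p-values measure the spread between these libraries. They name the whole brain as the tissue, whereas the protocol describes whole heads.

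A muscle sarcomere is built from interleaved thick and thin filaments. Myosin heavy chains with their essential and regulatory light chains form the insect thick filament around a paramyosin core, thin filaments are actin strands covered by tropomyosin and the calcium switch troponin, and giant elastic proteins tie the thick filament to the Z-disc. Fly heads hold muscles of the proboscis and antennae, and in pupae the ptilinum muscle. Fmr1 is mostly studied in neurons, where it regulates translation of synaptic mRNAs, but it is also present in fly muscle.

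Counts in genes ran from 10726339 to 54195136 in mutant Fmr1 libraries and from 14843961 to 29699547 in wild-type ones, from 274951 to 3052311 in mutant IgG and from 196933 to 5879253 in wild-type IgG libraries, and from 9207492 to 15459370 in mutant and from 5623123 to 13240187 in wild-type inputs. Of the IgG libraries, 3 held under 500000 counts, while wild-type IgG replicate 7 (5879253) was deeper than wild-type input replicate 1 (5623123). Ythdf mRNA stood at 29.4 to 36.3 CPM (counts scaled to library size by TMM, as are all levels here) in mutant inputs and at 55.5 to 69.1 CPM in wild-type inputs, without overlap. Of 11469 genes tested, all 10 muscle genes passed the filter on low counts.

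The muscle mRNAs were abundant in every group. Together they took 5.73 ± 1.09% of the counts in genes in mutant Fmr1 libraries and 6.54 ± 0.805% in wild-type ones, 6.25 ± 1.76% and 6.04 ± 1.33% in mutant and wild-type IgG libraries, and 3.57 ± 0.546% and 4.11 ± 0.364% in mutant and wild-type inputs (SD, n = 4 mutant and 5 wild type). Both kinds of pull-down therefore held a larger share of muscle mRNA than the inputs, and the lowest pull-down share, 4.12% in mutant IgG replicate 7, lay within the range of the wild-type inputs, 3.60% to 4.40%. Markers of the other cells of the head were present too. The summed level of 8 neuron markers was 5219 to 5609 CPM in mutant inputs and 5850 to 9044 CPM in wild-type inputs, and that of 8 photoreceptor markers 13578 to 15035 CPM and 15686 to 19237 CPM.

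Levels per kilobase allow genes to be compared with each other. In the inputs, Mlc2, the regulatory light chain, was the highest on this scale, at 3009 ± 273 CPM per kilobase of exon in the mutant and 3601 ± 254 in the wild type. It was followed by up, which encodes troponin T, at 1427 ± 266 and 1897 ± 172, and by Mlc1, the essential light chain, at 1379 ± 152 and 1782 ± 109 CPM per kilobase. The next, wupA, which encodes troponin I, had 1004 ± 199 and 1290 ± 93.1 CPM per kilobase. Mhc, the muscle myosin heavy chain, had 907 ± 187 and 1105 ± 216 CPM per kilobase and Tm2, a tropomyosin, 579 ± 104 and 790.1 ± 73.3. Prm, which encodes paramyosin, had 415 ± 56.7 and 532 ± 73.9 CPM per kilobase. The lowest were Tm1, the other tropomyosin gene (214 ± 37.1 and 231 ± 32.4), bt, which encodes the giant protein projectin (105 ± 44.3 and 156 ± 37.2), and sls, which encodes the titin-like Sallimus (21.9 ± 5.17 and 32.5 ± 7.49 CPM per kilobase). In both genotypes the ranges of the neighbours up and Mlc1, wupA and Mhc, and Mhc and Tm2 overlapped, so their order is not set apart by the spread. Those of Tm2 and Prm overlapped in the mutant, and those of Tm1 and bt in the wild type. In the mutant Fmr1 libraries the order was led by up, at 5790 ± 2422 CPM per kilobase, then Mhc at 2237 ± 769.9, and in the wild-type Fmr1 libraries by the same pair, at 6331 ± 2400 and 2719 ± 909. Lengths are the union of annotated exons. With the longest transcript in its place, Tm1, whose 18 transcripts span 9.8 kb of exons but reach at most 3.05 kb each, had 685 ± 119 and 741 ± 104 CPM per kilobase in mutant and wild-type inputs. On that length wupA, at 1474 ± 291 and 1894 ± 137, stood above Mlc1 in both genotypes, with overlapping ranges. In mutant inputs Tm1 then stood above Prm (607 ± 83.0), so the order depends on the length used.

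**Figure D1:**
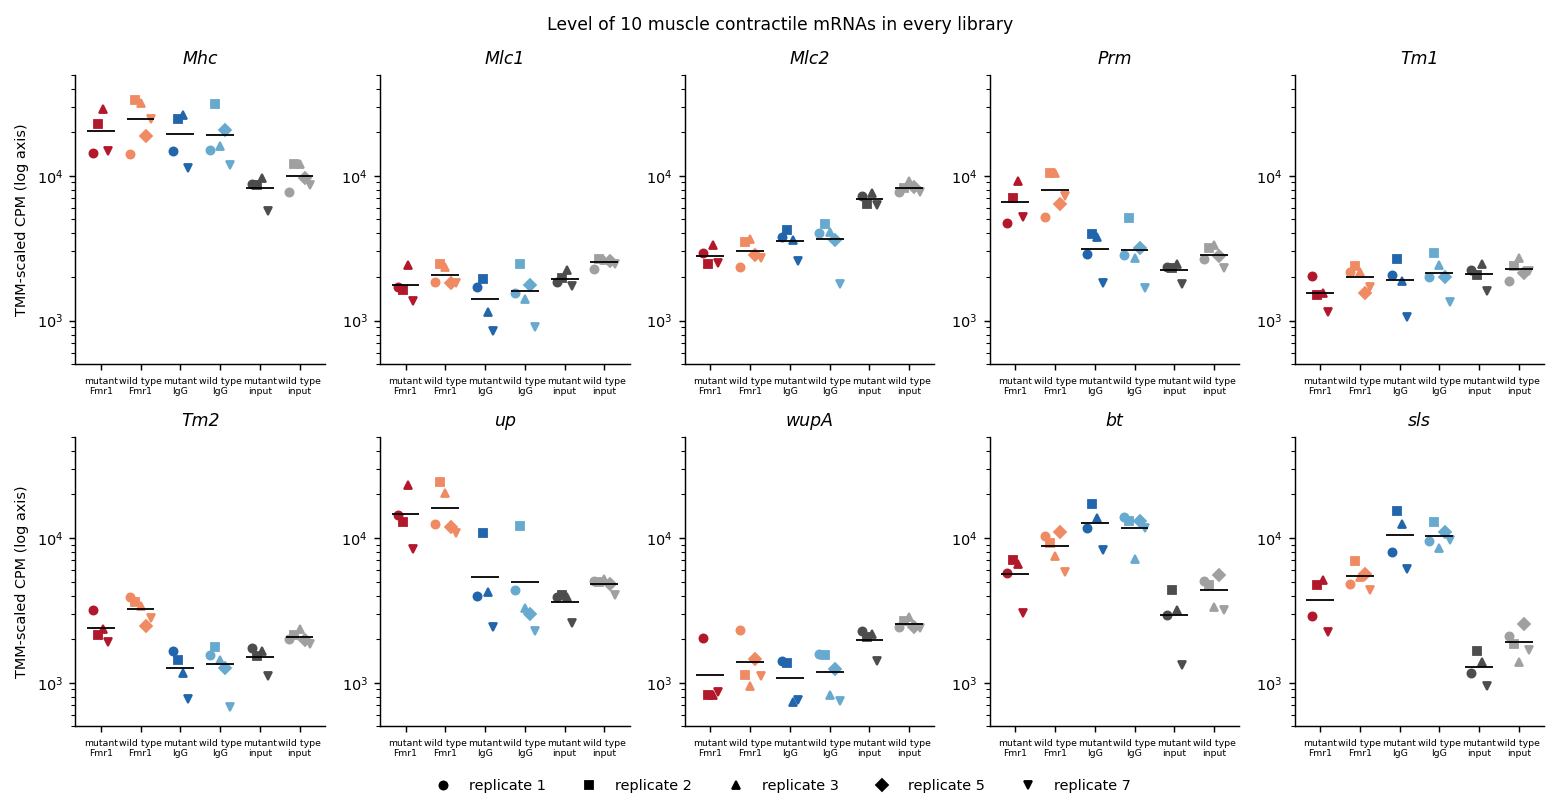
TMM-scaled CPM (log axis) of the 10 muscle mRNAs in all 27 libraries, with 1 point for each library, its shape giving the replicate number, and a line at the mean of each of the 6 groups. By group mean, up is highest in the Fmr1 libraries, Mlc2 and wupA in the inputs, and bt and sls in the IgG libraries.

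The comparison over IgG sets the make-up of the Fmr1 pull-down beside that of a pull-down by beads and unspecific antibody. It compares scaled shares of libraries, not amounts of RNA brought down. Over IgG, 3 of the 10 muscle mRNAs were higher and 2 lower in the mutant, and 3 were higher and 1 lower in the wild type (edgeR, Benjamini-Hochberg adjusted p under 0.05). The higher ones were up, Prm and Tm2 in both genotypes, and the lower ones were sls in both and bt in the mutant. Of all genes tested 10.8% were called higher and 9.61% lower in the mutant (20.4% in either direction), and 16.4% higher and 17% lower in the wild type (33.4%). Every Fmr1 library lay above every IgG library for 2 of the 10 in each genotype (9.71% of all genes in the mutant, 8.07% in the wild type). Every one lay below for 2 of the 10 in the mutant (6.41% of all genes) and 1 in the wild type (3.85%). The median log2 fold change of the 10 was 0.08 in the mutant and 0.29 in the wild type, beside −0.00075 and −0.025 for all genes tested. Without mutant IgG replicate 7, and likewise in a model of the compared groups alone, the mutant calls fell to bt and sls.

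Over input, which compares the pulled-down RNA with the whole lysate, 6 were higher (Mhc, Prm, Tm2, up, bt and sls) and 2 lower (Mlc2 and wupA) in each genotype. Background shares of genes called were 21.7% higher and 24.8% lower in the mutant (46.5% in all) and 23.2% higher and 25.6% lower in the wild type (48.8%). Every Fmr1 library lay above every input for 5 of the 10 in the mutant (20.7% of all genes) and 6 in the wild type (18.9%). Every one lay below for 1 of the 10 in the mutant (25.4% of all genes) and 2 in the wild type (20.7%). The medians of the 10 were 0.80 and 0.83 on the log2 scale, beside −0.10 and −0.035 for all genes. These comparisons share their Fmr1 libraries with those over IgG.

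The IgG pull-down alone also differed from input. In the mutant 3 of the 10 were higher (Mhc, bt and sls) and 1 lower (Mlc2), and in the wild type the same 3 were higher and 4 lower (Mlc1, Mlc2, Tm2 and wupA). Genes called made up 5.46% higher and 5.77% lower in the mutant (11.2% in all), and 14.7% higher and 14.6% lower in the wild type (29.3%). Every IgG library lay above every input for 3 of the 10 in the mutant (8.44% of all genes) and 2 in the wild type (5.06%). Every one lay below for 1 of the 10 in the mutant (14.9% of all genes) and 3 in the wild type (10.1%). The medians of the 10 were 0.17 and −0.015, beside −0.075 and −0.017 for all genes.

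**Figure D2:**
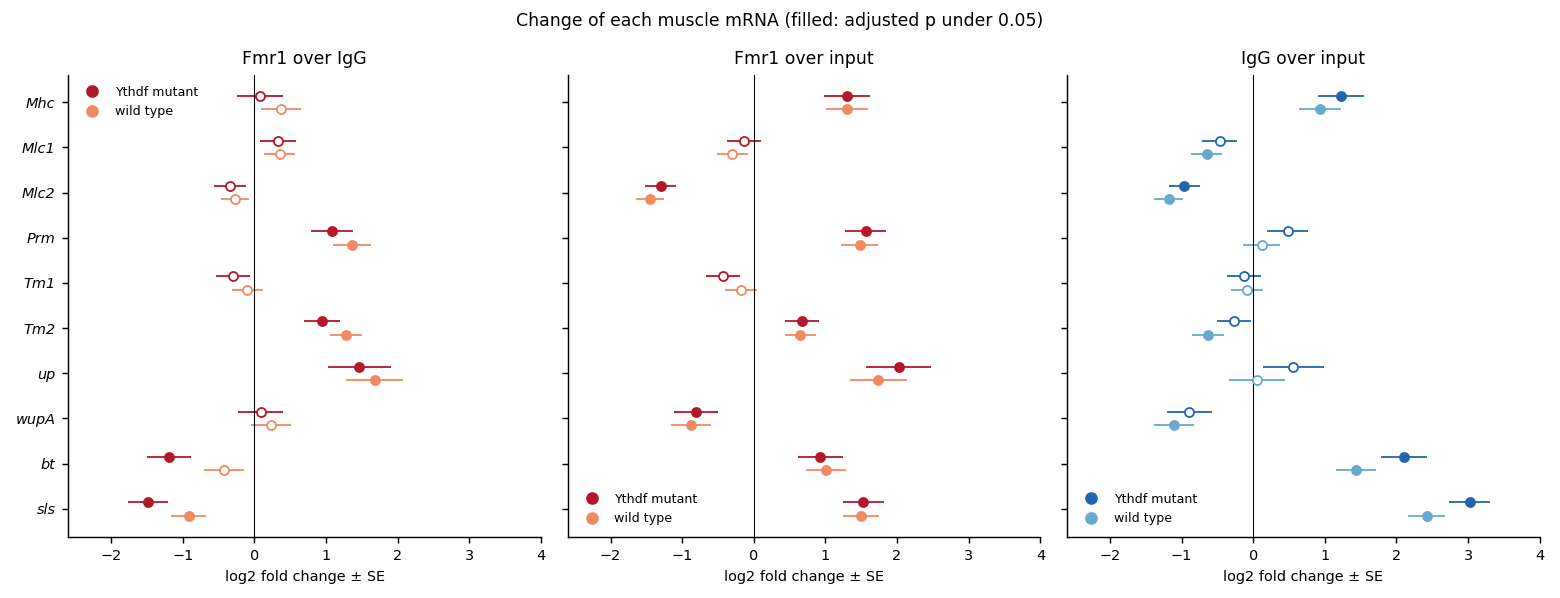
Log2 fold change with its SE of each muscle mRNA in the Ythdf mutant and the wild type, for Fmr1 over IgG, Fmr1 over input and IgG over input, with filled points where the edgeR adjusted p is under 0.05. In both genotypes up, Prm and Tm2 lie right of 0 over IgG and over input, and bt and sls lie left of 0 over IgG and right of 0 over input.

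Among the thick filament genes, Mhc lies on chromosome 2L (16766566 to 16788766, Ensembl BDGP6.54) and is the single gene for the muscle myosin heavy chain, spliced into many isoforms. It had 14436, 22618, 29088 and 14921 CPM in the mutant Fmr1 libraries (replicates 1, 2, 3 and 7), against 14853, 24588, 26343 and 11315 CPM in the mutant IgG libraries and 8820, 8693, 9595 and 5747 CPM in the mutant inputs. In the wild type (replicates 1, 2, 3, 5 and 7) it had 14229, 33558, 31736, 18903 and 24735 CPM in Fmr1 libraries, against 15020, 31513, 15999, 20768 and 11842 CPM in IgG libraries and 7704, 12031, 12000, 9689 and 8641 CPM in inputs. Fmr1 and IgG libraries overlapped. Every Fmr1 library lay above every input of its genotype, as for 20.7% of all genes tested in the mutant and 18.9% in the wild type. The log2 fold change over input was 1.30 ± 0.32 in the mutant (edgeR adjusted p = 0.0016) and 1.30 ± 0.29 in the wild type (0.000486), and over IgG it was 0.072 ± 0.32 (0.924) and 0.37 ± 0.28 (0.337). IgG over input was nearly as large as Fmr1 over input, at 1.23 ± 0.32 (0.0128) and 0.93 ± 0.29 (0.0153). The call of Mhc over input in IgG was lost in the mutant without IgG replicate 3 (1.04, adjusted p = 0.0746) and in the wild type without IgG replicate 2 (0.67, 0.0732) or without all IgG libraries under 500000 counts (0.68, 0.0970).

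Prm (chromosome 3L, 8732858 to 8745310) encodes paramyosin and, from an inner promoter, miniparamyosin. It had 4702, 7028, 9254 and 5196 CPM in mutant Fmr1 libraries, against 2868, 3945, 3756 and 1829 CPM in mutant IgG libraries and 2339, 2301, 2473 and 1781 CPM in mutant inputs. The wild type had 5181, 10411, 10511, 6333 and 7212 CPM in Fmr1 libraries, against 2815, 5095, 2693, 3185 and 1668 CPM in IgG libraries and 2670, 3164, 3310, 2777 and 2321 CPM in inputs. In both genotypes all Fmr1 libraries lay above all IgG libraries and all inputs. Prm rose by 1.08 ± 0.29 over IgG in the mutant (edgeR adjusted p = 0.00906) and by 1.36 ± 0.26 in the wild type (0.000203). Over input its log2 fold changes were 1.56 ± 0.29 (0.0001) and 1.48 ± 0.26 (3.73e-05). Without mutant IgG replicate 7, the mutant value over IgG was 0.86 and missed the threshold (adjusted p = 0.0671).

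The light chains behaved unlike the heavy chain. Mlc2 (chromosome 3R, 30171438 to 30174551) had 2907, 2446, 3333 and 2495 CPM in mutant Fmr1 libraries, against 3749, 4217, 3623 and 2575 CPM in mutant IgG libraries and 7255, 6404, 7558 and 6297 CPM in mutant inputs. Its wild-type values were 2346, 3494, 3670, 2822 and 2710 CPM in Fmr1 libraries, against 4035, 4677, 4069, 3613 and 1790 CPM in IgG libraries and 7731, 8280, 9128, 8323 and 7693 CPM in inputs. Every pull-down of either kind lay below every input of its genotype. Fmr1 over input was −1.30 ± 0.22 (edgeR adjusted p = 3.49e-05) in the mutant and −1.45 ± 0.20 (1.27e-06) in the wild type, IgG over input −0.96 ± 0.22 (0.0058) and −1.18 ± 0.20 (8.03e-05). Over IgG it had −0.34 ± 0.22 (0.291) and −0.27 ± 0.20 (0.307). The wild-type value over IgG passed without wild-type IgG replicate 7 (−0.45, adjusted p = 0.0325) and by DESeq2 (−0.48, 0.0331), and the mutant call of IgG over input was lost without mutant IgG replicate 7 (−0.72, 0.0590).

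Mlc1 (chromosome 3R, 27657078 to 27660177) differed less between the kinds of library. It averaged 1766 ± 449.6 CPM in mutant and 2049 ± 312 CPM in wild-type Fmr1 libraries, 1408 ± 499 and 1612 ± 562 CPM in IgG libraries, and 1950 ± 215 and 2519 ± 154 CPM in inputs (SD, n = 4 mutant and 5 wild type). Its values over IgG were 0.33 ± 0.25 and 0.35 ± 0.22, and over input −0.14 ± 0.24 and −0.30 ± 0.22 on the log2 scale, none past the threshold. Among these and IgG over input (−0.47 ± 0.25 in the mutant), only wild-type IgG over input was called, at −0.65 ± 0.22 (edgeR adjusted p = 0.0265). That call was lost without wild-type input replicate 2 (−0.57, 0.0850) or IgG replicate 1 (−0.62, 0.0522), 3 (−0.59, 0.0644), 5 (−0.61, 0.0663) or 7 (−0.49). It was also lost with RLE size factors (−0.53, 0.0667), with upper-quartile factors (−0.53, 0.0704), by DESeq2 (−0.53, 0.0519), in the compared groups alone (−0.56, 0.0946) and in replicates 2 and 3 alone (−0.50, 0.195).

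In the thin filament, the 2 tropomyosin genes lie next to each other on chromosome 3R. Tm2 (15310193 to 15315197) had 3179, 2140, 2368 and 1906 CPM in mutant Fmr1 libraries, against 1645, 1429, 1172 and 771 CPM in mutant IgG libraries and 1727, 1541, 1659 and 1120 CPM in mutant inputs. The wild type had 3914, 3635, 3398, 2473 and 2806 CPM in Fmr1 libraries, against 1552, 1776, 1427, 1258 and 682 CPM in IgG libraries and 1994, 2141, 2355, 1976 and 1856 CPM in inputs. All Fmr1 libraries lay above all IgG libraries and all inputs of their genotype. Tm2 rose over IgG by 0.94 ± 0.25 in the mutant (edgeR adjusted p = 0.00759) and by 1.28 ± 0.22 in the wild type (6.18e-05), and over input by 0.67 ± 0.24 (0.0266) and 0.65 ± 0.22 (0.0145). The mutant value over IgG missed the threshold without Fmr1 replicate 1 (0.69, 0.0513) or IgG replicate 7 (0.74, 0.0624). The mutant value over input missed it without Fmr1 replicate 1 (0.44, 0.151) or input replicate 2 (0.61, 0.0665), 3 (0.65, 0.0523) or 7 (0.64, 0.0653). IgG over input was −0.27 ± 0.24 (0.503) and −0.63 ± 0.22 (0.0307), the second lost without wild-type input replicate 2 (−0.56, 0.0905) or 3 (−0.57, 0.0689) or IgG replicate 5 (−0.54) or 7 (−0.45, 0.109). The second was also lost with RLE size factors (−0.51, 0.0779), with upper-quartile factors (−0.51, 0.0849), by DESeq2 (−0.51, 0.0629) and in the compared groups alone (−0.54, 0.0991). RLE size factors ended the mutant call over input as well (0.58, 0.0509).

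Tm1 (15278220 to 15308779), which also encodes tropomyosins of non-muscle cells, was not called in any of these comparisons. It averaged 1554 ± 373 CPM in mutant and 1995 ± 351 CPM in wild-type Fmr1 libraries, 1913 ± 664 and 2137 ± 585 CPM in IgG libraries, and 2093 ± 364 and 2262 ± 317 CPM in inputs. Its log2 values were −0.30 ± 0.24 and −0.10 ± 0.22 over IgG and −0.43 ± 0.24 and −0.18 ± 0.22 over input. With the replicate as a block by genotype and number, the mutant value over input passed (−0.44, edgeR adjusted p = 0.0449), as it did without mutant Fmr1 replicate 1 (−0.65, 0.0414). In replicates 2 and 3 alone, mutant Tm1 was called lower over input (−0.58, edgeR adjusted p = 0.0144) and over IgG (−0.56, 0.0390). Its exons share 280 bases (2.86%) with l(3)neo43 on the opposite strand, and the strand used in counting is not given in the sources used here.

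The troponin genes up and wupA, both on the X chromosome, differed from each other. Troponin T, encoded by up (13593474 to 13602578), anchors the troponin complex to tropomyosin. It had 14328, 12857, 23023 and 8388 CPM in mutant Fmr1 libraries, against 3945, 10798, 4200 and 2426 CPM in mutant IgG libraries and 3879, 4026, 3932 and 2603 CPM in mutant inputs. The wild type had 12576, 24412, 20497, 11811 and 10786 CPM in Fmr1 libraries, against 4362, 12068, 3298, 2971 and 2259 CPM in IgG libraries and 5044, 4942, 5166, 4783 and 4065 CPM in inputs. Replicate 2 was the highest IgG library in both genotypes, and it alone overlapped the Fmr1 libraries, while Fmr1 libraries and inputs did not overlap. The change over IgG was 1.46 ± 0.44 in the mutant (edgeR adjusted p = 0.0197) and 1.68 ± 0.40 in the wild type (0.00172), and over input 2.02 ± 0.45 (0.000608) and 1.74 ± 0.40 (0.000686). In rank among all genes tested, up stood at the 98.5th and 99.5th percentile of log2 fold change over IgG and at the 99.7th and 99th over input. The mutant call over IgG was lost without Fmr1 replicate 3 (1.16, 0.0864) or IgG replicate 1 (1.31, 0.0797), 3 (1.37, 0.0530) or 7 (1.18, 0.103). In replicates 2 and 3 alone, up missed the threshold over IgG in both genotypes (1.28, 0.205 in the mutant and 1.57, 0.104 in the wild type).

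Troponin I, the inhibitory subunit, is encoded by wupA (18105568 to 18116922). It had 2041, 816, 822 and 861 CPM in mutant Fmr1 libraries, against 1423, 1376, 735 and 757 CPM in mutant IgG libraries and 2286, 2077, 2170 and 1411 CPM in mutant inputs. The wild type had 2301, 1126, 942, 1449 and 1116 CPM in Fmr1 libraries, against 1580, 1543, 816, 1242 and 751 CPM in IgG libraries and 2442, 2656, 2827, 2434 and 2399 CPM in inputs. Fmr1 replicate 1 was the highest of its group in both genotypes, and in the wild type no pull-down reached the inputs. Over input wupA fell by 0.81 ± 0.31 in the mutant (edgeR adjusted p = 0.0344) and by 0.88 ± 0.28 in the wild type (0.0102), and over IgG it had 0.087 ± 0.31 (0.899) and 0.23 ± 0.28 (0.573). The mutant call over input was lost without input replicate 1 (−0.63, 0.144) or Fmr1 replicate 2 (−0.74, 0.0801), 3 (−0.68, 0.115) or 7 (−0.67, 0.108), without the low-count filter (−0.74, 0.0694) and in the compared groups alone (−0.80, 0.0677). IgG over input was −0.89 ± 0.31 (0.061) and −1.11 ± 0.28 (0.00369), and with a replicate block the mutant value passed (−0.94, 0.00607). The mutant value also passed in replicates 2 and 3 alone (−1.03, 0.0186) and without the IgG libraries under 500000 counts (−1.07, 0.0370).

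The ratio of partner genes within a library does not depend on how libraries are scaled. The CPM of up over that of wupA was 7.02 to 28.0 in mutant Fmr1 libraries and 5.47 to 21.8 in wild-type ones, 2.77 to 7.85 and 2.39 to 7.82 in mutant and wild-type IgG libraries, and 1.70 to 1.94 and 1.69 to 2.07 in mutant and wild-type inputs. All pull-downs thus had a higher ratio than all inputs, and Fmr1 and IgG libraries overlapped. Between same-numbered libraries the ratio was higher in Fmr1 than in IgG for 4 of 4 mutant pairs and for 5 of 5 wild-type numbers, although the wild-type numbers were not taken to pair these kinds of library. Within the Fmr1 libraries the ratio was 15.7 and 28.0 in mutant replicates 2 and 3 and 7.02 and 9.75 in mutant replicates 1 and 7, and 21.7 and 21.8 in wild-type replicates 2 and 3 and 5.47 to 9.66 in the others. Replicates 2 and 3 were thus the highest in both genotypes. They were the highest in the IgG libraries too, with 7.85 and 5.71 in the mutant and 7.82 and 4.04 in the wild type. The other IgG libraries had 2.77 and 3.20 in the mutant and 2.39 to 3.01 in the wild type. The labels do not say what these numbers share. Tm2 over Tm1 separated the Fmr1 libraries from all others, with 1.44 to 1.68 in mutant and 1.52 to 1.82 in wild-type Fmr1 libraries, 0.535 to 0.803 and 0.506 to 0.782 in IgG libraries, and 0.672 to 0.777 and 0.851 to 1.07 in inputs. It also separated the inputs by genotype, lower in all mutant inputs. Prm over Mhc was 0.311 to 0.348 and 0.292 to 0.364 in mutant and wild-type Fmr1 libraries, and 0.143 to 0.193 and 0.141 to 0.187 in IgG libraries. In inputs it was 0.258 to 0.310 and 0.263 to 0.347, so that here IgG stood apart from both other kinds.

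**Figure D3:**
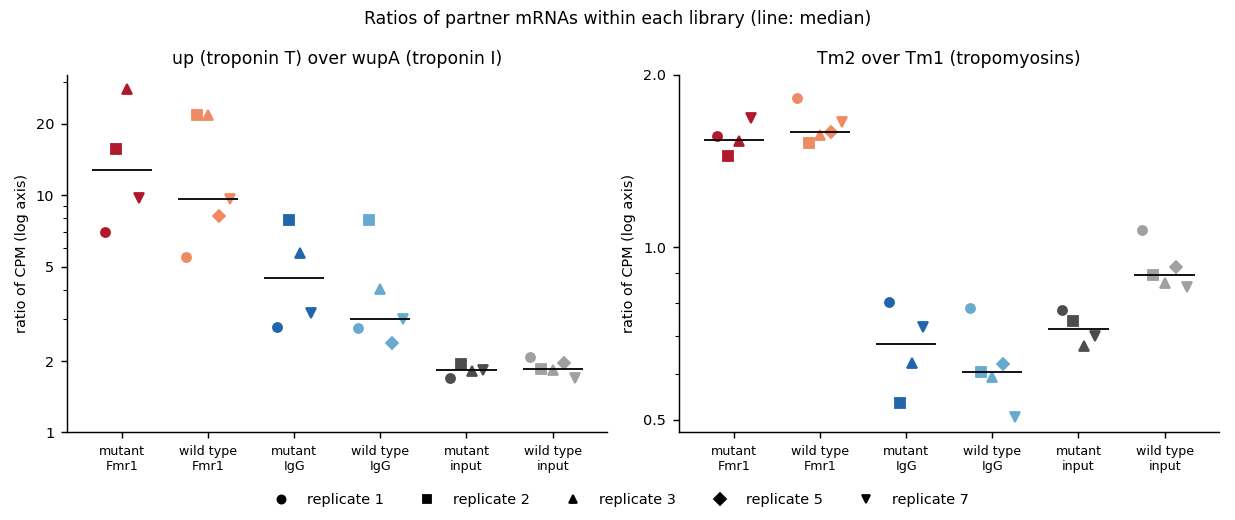
Ratio of the CPM of up to wupA and of Tm2 to Tm1 in each library (log axes), by group, with the replicate number as the point's shape and a line at the median. The first ratio spans 5.47 to 28.0 in Fmr1 libraries and 1.69 to 2.07 in inputs, and the second 1.44 to 1.82 in Fmr1 libraries and 0.506 to 1.07 in all others.

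The giant proteins of the elastic filament followed another pattern, with the highest levels in IgG libraries. Projectin is encoded by bt (chromosome 4, 724400 to 776474, 28.02 kb of exons). It had 5691, 7035, 6645 and 3033 CPM in mutant Fmr1 libraries, against 11688, 17276, 13693 and 8308 CPM in mutant IgG libraries and 2935, 4340, 3169 and 1326 CPM in mutant inputs. The wild type had 10279, 9283, 7552, 11015 and 5801 CPM in Fmr1 libraries, against 13911, 13086, 7098, 13019 and 11752 CPM in IgG libraries and 5035, 4698, 3358, 5534 and 3182 CPM in inputs. In the mutant all Fmr1 libraries lay below all IgG libraries, and in the wild type the groups overlapped through IgG replicate 3. The log2 fold change over IgG was −1.19 ± 0.31 (edgeR adjusted p = 0.00797) in the mutant and −0.42 ± 0.28 (0.257) in the wild type. Over input it was 0.93 ± 0.31 (0.0159) and 1.01 ± 0.28 (0.00359), the first lost without mutant Fmr1 replicate 2 (0.74, 0.0791) and in the compared groups alone (0.94, 0.0615). IgG over input was 2.11 ± 0.32 (0.000119) and 1.43 ± 0.28 (0.000374).

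Sallimus, which links the Z-disc to the thick filament and includes the kettin isoforms, is encoded by sls (chromosome 3L, 2039681 to 2115611, 59.0 kb of exons). It had 2896, 4714, 5082 and 2243 CPM in mutant Fmr1 libraries, against 7952, 15427, 12488 and 6096 CPM in mutant IgG libraries and 1171, 1655, 1396 and 943 CPM in mutant inputs. The wild type had 4800, 6901, 5412, 5642 and 4362 CPM in Fmr1 libraries, against 9501, 12845, 8493, 10963 and 9647 CPM in IgG libraries and 2114, 1861, 1393, 2554 and 1676 CPM in inputs. The 3 kinds of library did not overlap in either genotype, with IgG highest and input lowest. Over IgG sls fell by 1.49 ± 0.28 in the mutant (edgeR adjusted p = 0.000425) and by 0.92 ± 0.25 in the wild type (0.00456), while over input it rose by 1.53 ± 0.28 (7.12e-05) and 1.50 ± 0.25 (1.69e-05). IgG over input was 3.02 ± 0.29 (2.25e-07), an 8.13-fold difference, in the mutant and 2.42 ± 0.26 (2.76e-07), a 5.36-fold difference, in the wild type. An antisense transcript, asRNA:CR42860, shares 1089 bases (1.85%) of its exons.

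The share of each gene in the summed muscle signal moved accordingly. The giant pair sls and bt made up 17.2 ± 1.40% and 21.5 ± 1.53% in mutant and 18.0 ± 2.93% and 20.7 ± 5.73% in wild-type IgG libraries. In inputs they made up 3.94 ± 0.556% and 8.73 ± 2.85% in the mutant and 4.65 ± 1.12% and 10.5 ± 2.46% in the wild type. Mlc2 took 4.82 ± 1.05% in mutant and 4.08 ± 0.333% in wild-type Fmr1 libraries, against 21.4 ± 3.08% and 19.8 ± 0.977% in inputs. The share of up was 23.7 ± 3.90% and 21.0 ± 3.25% in Fmr1 libraries, against 11.0 ± 0.418% and 11.6 ± 0.807% in inputs.

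**Figure D4:**
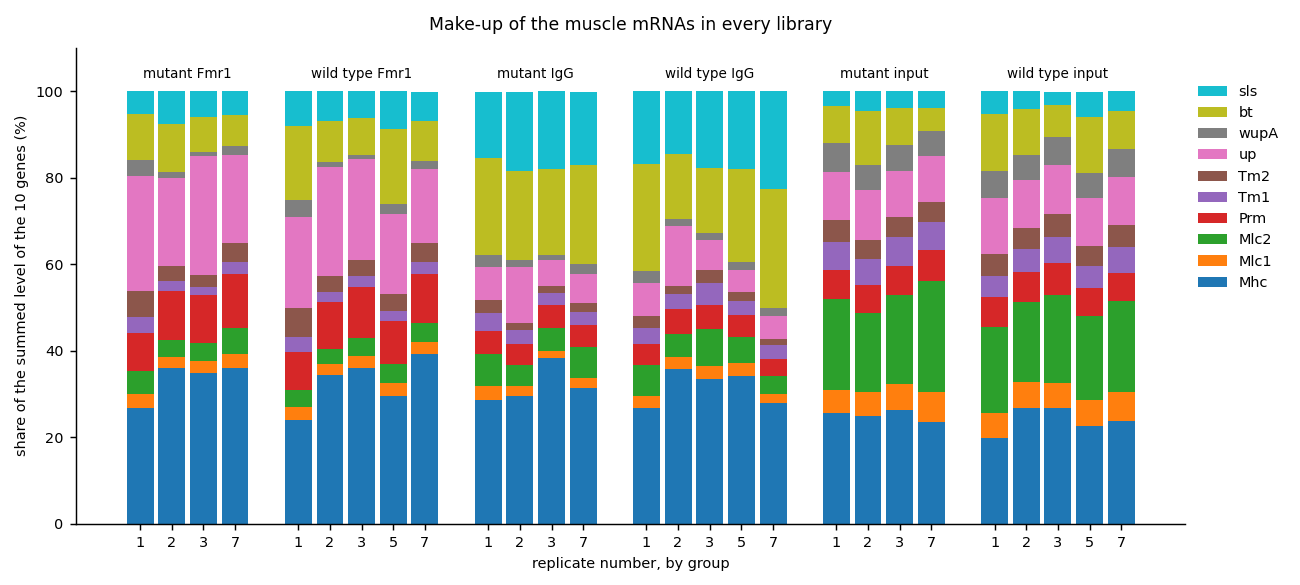
Share of each of the 10 genes in their summed CPM, in percent, with 1 stacked bar for each of the 27 libraries. Together sls and bt are widest in the IgG bars, up is widest in the Fmr1 bars, and in input bars Mlc2 takes 18.3% to 25.6% in the mutant and 18.5% to 21.1% in the wild type.

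Exon length and the change over input went together in both kinds of pull-down. Across the 10 muscle genes the Spearman correlation of exon length with the log2 fold change of IgG over input was 0.830 in the mutant and 0.855 in the wild type, and across 10432 coding genes it was 0.438 and 0.385. For Fmr1 over input it was 0.418 and 0.552 across the 10 genes and 0.695 and 0.671 across the coding genes. For Fmr1 over IgG it was −0.552 and −0.418 across the 10 genes and 0.513 and 0.481 across the coding genes. These are descriptions across genes that share all their libraries. Of the 24 coding genes with at least 20 kb of exons, bt and sls included, 17 were called higher in IgG over input in the mutant and 21 in the wild type (5.46% and 14.7% of all genes tested). In Fmr1 over IgG, 7 of the 24 were called lower in each genotype (9.61% of all genes in the mutant, 17% in the wild type). In Fmr1 over input, 20 of the 24 were called higher and 0 lower in the mutant (21.7% and 24.8% of all genes). In the wild type 19 were higher and 1 lower (23.2% and 25.6%). Fat body markers, 6 storage and fat body protein genes, moved with the IgG libraries as well. All 6 were higher in IgG over input and lower in Fmr1 over IgG in both genotypes, and their summed level was 1227 to 8007 CPM in mutant and 1190 to 3569 CPM in wild-type IgG libraries, 122 to 452 and 90.6 to 382 CPM in Fmr1 libraries, and 242 to 301 and 167 to 245 CPM in inputs. Their part in the muscle results was not tested.

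**Figure D5:**
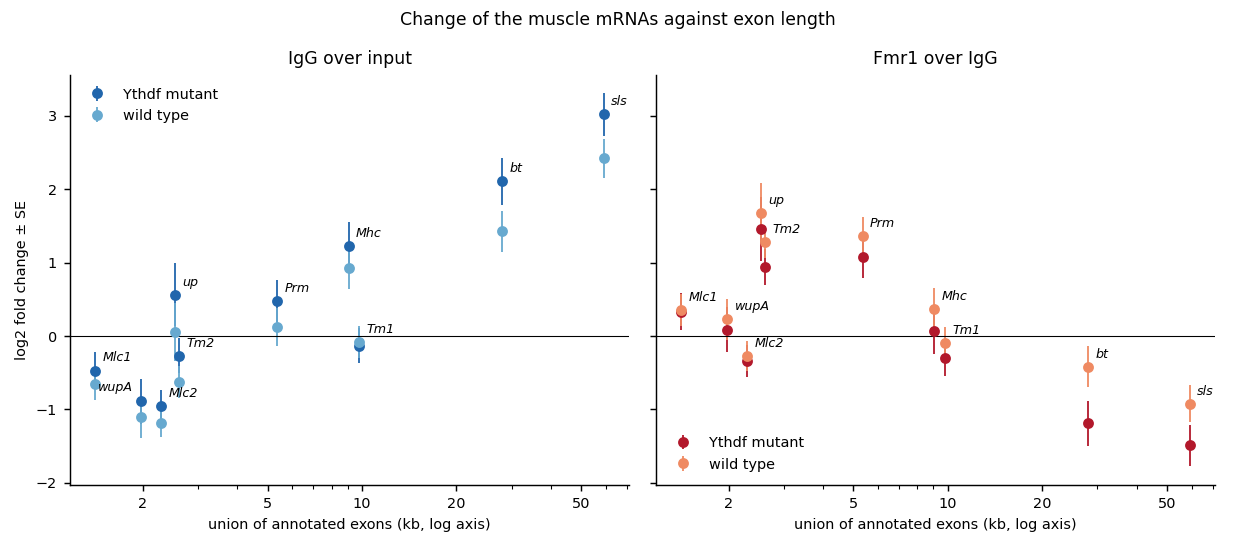
Log2 fold change with its SE of the 10 muscle mRNAs against the union of their annotated exons in kilobases (log axis), for IgG over input and Fmr1 over IgG in the Ythdf mutant and the wild type. The longest genes, bt and sls, have the highest values in IgG over input and the lowest in Fmr1 over IgG.

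Whether loss of Ythdf altered these pull-downs was asked by the difference of the changes between genotypes. By edgeR 0 of the 10 differed over IgG, with 0 at an unadjusted p under 0.05 and 0 by DESeq2, where 0% of all genes tested were called by edgeR. All 10 differences, mutant minus wild type, were below 0, from −0.018 ± 0.33 for Mlc1 to −0.76 ± 0.41 for bt, with a median of −0.25 beside 0.0034 for all genes. Markers of other cells lay below 0 as well: 8 photoreceptor markers from −0.43 to −0.15 (median −0.27), 6 fat body markers from −1.69 to −0.07 (median −1.25) and 4 tested hemocyte markers from −0.51 to −0.041 (median −0.32). Neuron markers (−0.29 to 0.29, median −0.074) and glia markers (−0.69 to 0.13, median −0.22) lay on both sides of 0, and the part of these cells in the muscle values was not tested. Other muscle lists also lay on both sides of 0, with 4 actins from −0.013 to 0.69 (median 0.24) and 6 regulators from −0.19 to 0.41 (0.22). So did 13 further sarcomere genes (−0.36 to 0.49, median −0.15) and 5 troponin C genes (−0.13 to 1.08, median −0.10). Tested calcium handling genes ran from −0.34 to 1.09 (median −0.092). The highest sarcomere, troponin C and calcium handling values were those of Zasp67, TpnC4 and SclB, each at 0 CPM in its lowest mutant IgG library. Of the 10 members, the second lowest was sls at −0.57 ± 0.37, and Mlc1, Mlc2, Tm1, up and wupA turned positive under other settings or without a library. The other members had −0.34 ± 0.33 (Tm2), −0.30 ± 0.43 (Mhc), −0.28 ± 0.38 (Prm), −0.23 ± 0.58 (up), −0.20 ± 0.33 (Tm1), −0.15 ± 0.42 (wupA) and −0.068 ± 0.29 (Mlc2). Over input 0 of the 10 differed by edgeR, again with 0 at an unadjusted p under 0.05 and 0 by DESeq2, and 0.00872% of all genes were called. These differences ran from −0.25 ± 0.33 for Tm1 to 0.28 ± 0.58 for up, with a median of 0.053 beside −0.013. Between them were bt (−0.082 ± 0.41), Mhc (0.0043 ± 0.43), Tm2 (0.013 ± 0.33), sls (0.033 ± 0.37), wupA (0.072 ± 0.41), Prm (0.08 ± 0.38), Mlc2 (0.15 ± 0.29) and Mlc1 (0.16 ± 0.33), of which Mlc2 alone kept its sign under every setting run. They share the Fmr1 libraries with the differences over IgG.

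In the inputs all 10 muscle mRNAs had lower mean levels in the mutant than in the wild type, and by edgeR 0 of them passed. At an unadjusted p under 0.05 there was 1, sls, and DESeq2 called 0, while 5.68% of all genes were called, 3.33% higher and 2.35% lower. The log2 fold changes ran from −0.11 ± 0.23 for Tm1 to −0.57 ± 0.26 for sls and −0.57 ± 0.30 for bt. Between them were Mlc2 (−0.26 ± 0.21), Mhc (−0.29 ± 0.30), Prm (−0.36 ± 0.27), wupA (−0.36 ± 0.29), Mlc1 (−0.37 ± 0.23), up (−0.41 ± 0.41) and Tm2 (−0.45 ± 0.23). The 10 had a median of −0.37 beside 0.039 for all genes. For 5 of the 10, Mlc1, Mlc2, Tm2, up and wupA, every mutant input lay below every wild-type input, as was the case for 9.98% of all genes tested. These are TMM-scaled levels, with factors of 1.053 to 1.131 in mutant and 0.9742 to 1.012 in wild-type inputs. Dividing by them lowers mutant levels against wild-type ones, so this separation depends in part on the scaling. Mlc1 had 1742 to 2239 CPM in mutant and 2273 to 2643 CPM in wild-type inputs, and Tm2 1120 to 1727 and 1856 to 2355 CPM. In a model of the inputs alone these 2 genes passed, Mlc1 at −0.37 (adjusted p = 0.0327) and Tm2 at −0.45 (0.0347). Mutant input replicate 7 was the lowest mutant input for all 10 genes. The neuron and photoreceptor sums given above, TMM-scaled as well, were also lower in every mutant input than in every wild-type input. Glia marker sums overlapped (3296 to 3714 CPM in mutant, 3598 to 4501 CPM in wild-type inputs), as did hemocyte marker sums (319.7 to 424, 363 to 524). Fat body marker sums were higher in the mutant (242 to 301 CPM, against 167 to 245 CPM), with a slight overlap. Of the other muscle lists, 4 actins (−0.59 to 0.67, median 0.14) lay on both sides of 0. The abundant Act57B (11483 ± 1625 CPM in mutant, 14004 ± 2273 in wild-type inputs) and Act87E (3819 ± 399, 5746 ± 999) were lower in the mutant. The scarcer Act88F (245 ± 153, 154 ± 91.5) and Act79B (179 ± 109.9, 120.5 ± 33.5) were higher by mean level. Also on both sides were 5 troponin C genes (−1.30 to 1.31, median −0.44) and 13 further sarcomere genes (−0.62 to 1.31, median −0.33). By mean level, TpnC4 was higher in the mutant (11.6 ± 11.1 CPM, 4.57 ± 4.40 in the wild type), and the other troponin C genes were lower. Of the further sarcomere genes, Zasp67 (3.85 and 1.51 CPM) and fln (30.4 and 18.1 CPM) were higher in the mutant and all others lower. Calcium handling genes (−1.94 to −0.19, median −0.47) and muscle regulators (−1.07 to −0.074, median −0.25) lay below 0. Their lowest values were those of the scarce mRNAs SclB (0.669 CPM in mutant, 2.64 in wild-type inputs) and twi (0.575, 1.23). Sums of the 10 overlapped between genotypes, with TMM (24574 to 36657 CPM in mutant, 36481 to 44885 CPM in wild-type inputs) and unscaled (27788 to 39767, 36035 to 44034). In such bulk samples fewer muscle cells and less mRNA per cell cannot be told apart.

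The muscle mRNAs varied together between inputs. As deviations from the genotype mean of log2 CPM, the 45 pairs of members had a median Pearson correlation of 0.702 over the 9 inputs, from −0.118 for Mlc2 with sls to 0.984 for Tm2 with wupA. Each gene's correlation with the mean of the other members ran from 0.297 for sls to 0.923 for Tm2. In the 9 Fmr1 libraries the median was 0.432, with 0.985 for Mhc and Prm at one end and −0.772 for Mhc and wupA at the other, and in the 9 IgG libraries it was 0.734. Of 7992 other genes with a mean of at least 5 CPM in the inputs, 34 had a correlation of at least 0.9 with the mean of the muscle genes, and the median was 0.0236. The 10 most alike were ArgRS (0.976), PPO1 (0.965), Mccc1 (0.963), Mlp84B (0.962), Gnf1 (0.947), hoka (0.944), Lkb1 (0.943), hlk (0.942), CG2614 (0.941) and Etl1 (0.939). Of these, Mlp84B encodes a muscle LIM protein of the Z-disc. The 9 inputs include mutant replicate 7, the lowest mutant input for all 10 genes, and its part in these correlations was not tested. All points share library and depth, so these values are descriptions.

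Other genes of muscle were compared by lists. Beside the counts below, 20.4% of all genes tested were called over IgG in the mutant and 33.4% in the wild type. Over input these shares were 46.5% and 48.8%. Of 13 further sarcomere genes, 1 was higher and 0 lower over IgG in the mutant and 1 higher and 1 lower in the wild type, with medians of 0.11 and 0.12. Over input 6 were higher and 2 lower in each genotype, among them Actn, the Z-disc crosslinker α-actinin (0.97 and 0.87, higher), and Zasp66, a Z-disc PDZ protein (−1.17 and −1.24, lower). Mf (−0.19 and −0.37) and Zasp52 (−0.087 and −0.31) did not pass there. Of 5 genes for troponin C, the calcium-binding subunit, 0 were higher and 4 lower over input in both genotypes, with medians of −1.55 and −1.63, which is the direction of wupA and not of up. TpnC73F had −1.24 and −1.63, TpnC25D −1.83 and −1.79, TpnC41C −1.55 and −1.54 and TpnC47D −0.95 and −1.21. Over IgG TpnC25D alone was called in the mutant (−0.72), and likewise in the wild type 1 of the 5 was lower, TpnC25D (−0.85).

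By edgeR 0 of the 4 muscle actins were called in either Fmr1 comparison, and at an unadjusted p under 0.05 there were 0 over IgG in both genotypes, and over input 0 in the mutant and 1 in the wild type. Act57B had 0.34 and 0.17 over IgG and −0.23 and −0.52 over input, and Act87E 0.27 and 0.28, and 0.18 and −0.20. Act88F had 0.38 and 0.068 over IgG, and Act79B 0.28 and −0.40. Of 5 tested genes for calcium handling, 1 was higher over IgG in the mutant and 2 in the wild type. SERCA, the calcium pump of the sarcoplasmic reticulum, was higher in both (0.79 and 0.89), and jp, junctophilin, in the wild type (0.53, with 0.43 in the mutant). RyR, the calcium release channel, and Ca-alpha1D, a calcium channel subunit, rose over input (1.71 and 1.55 for RyR, 1.08 and 1.16 for Ca-alpha1D), and also in IgG over input (2.30 and 1.80, 1.03 and 1.36). Over IgG they had −0.59 and −0.25, and 0.043 and −0.20.

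Of 10 genes for arginine kinase and glycolysis, 1 was higher over IgG in the mutant and 2 in the wild type, with Ald1, aldolase, in both (0.58 and 0.51), and PyK, pyruvate kinase, in the wild type (0.80, with 0.70 in the mutant). Over input 1 was higher and 5 lower in each genotype, Argk1, arginine kinase, among the lower ones (−0.82 and −0.93). Of 6 regulators of muscle genes, 0 passed over IgG by edgeR in either genotype, with 1 in the mutant and 0 in the wild type at an unadjusted p under 0.05. The splicing regulator mbl was lower over input (−0.67 and −0.75). The muscle transcription factor Mef2 had −0.047 and 0.0085 over input. Of 5 genes of nonmuscle myosin and its phosphatase, 2 were higher over IgG in each genotype, flw, a phosphatase subunit, among them (0.81 and 0.91). The nonmuscle light chains sqh and Mlc-c, relatives of Mlc2 and Mlc1, were lower over input (−0.88 and −0.95 for sqh, −1.41 and −1.62 for Mlc-c).

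Markers of other head cells differed among themselves in the same comparisons. Among all genes tested, 10.8% were called higher over IgG in the mutant and 16.4% in the wild type. Of 8 neuron markers 7 were higher over IgG in each genotype, with medians of 0.74 and 0.83. Of 8 photoreceptor markers 2 were higher in the mutant and 4 in the wild type, of 6 glia markers 0 in the mutant (edgeR, with 0 at an unadjusted p under 0.05) and 2 in the wild type, and of 4 tested hemocyte markers 1 in each, with none lower. One hemocyte gene, He, was under 1 CPM in every input. The part of these cells in the muscle values was not tested.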

How the data were processed

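The deposited table holds raw counts of reads per gene in 27 libraries. Per the submitters' processing notes, the tools were bcl2fastq 2.20, Trim Galore and STAR. The genome build, counting strand and handling of molecular identifiers are not given in the sources used here, and the strand-specific kit is per the labels' protocols. The 5 rows that name no gene held 23.79% to 74.68% of a library and were left out. Symbols, exons and coordinates came from Ensembl BDGP6.54 (release 115), where 17710 of 17807 identifiers matched. No sequence was read.

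Genes were filtered with filterByExpr (minimum count 10, total 15) of edgeR 4.0.16 in R 4.3.3, scaled by TMM and fitted in 1 robust quasi-likelihood model of 6 groups (biological coefficient of variation 0.281). This model held no replicate block, so its p-values and SEs do not use the pairing of libraries. In 9 comparisons p-values were adjusted by Benjamini-Hochberg over all 11469 genes. Values are log2 fold changes ± SE. Calls are at 0.05. The test was checked on simulated counts. DESeq2 1.42.0 and the settings in the closing section are alternatives. Figures were drawn with matplotlib 3.10.9.

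The members and the other lists (13 lists in all, 92 of 94 entries matched) were chosen with earlier results of these data known. All 10 members are named in every comparison, and of each other list at most 4 genes, those with the highest mean CPM in inputs. The protocol divides 1 lysate into input and pull-downs. Deviations of same-numbered libraries correlated at 0.181 to 0.318 (mutant Fmr1 and IgG), 0.138 to 0.495 (mutant Fmr1 and input), 0.175 to 0.473 (wild-type Fmr1 and input) 0.14 to 0.268 (mutant IgG and input) and 0.311 to 0.639 (mutant and wild-type Fmr1), so numbers were taken to pair these. Wild-type Fmr1 and IgG (−0.0128 to 0.326), wild-type IgG and input (−0.0476 to 0.154), and IgG libraries (0.0496 to 0.194) and inputs (0.0214 to 0.354) across genotypes did not reach 0.1 in every pair. With the number as a block shared by both genotypes, 0 of the 10 genotype differences were called by edgeR over IgG (1 at an unadjusted p under 0.05) and 0 over input (0).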

Additional observations from a re-analysis of the deposited data

Results flagged for a closer look

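In 60 groups of values (10 genes in 6 groups of libraries), 3 held a library far from the others of its group, and chance flags about 1 group in 20. The up mRNA had 12068 CPM in wild-type IgG replicate 2, and 2259 to 4362 CPM in the other wild-type IgG libraries. This library held 444993 counts. The up mRNA had 2603 CPM in mutant input replicate 7, and 3879 to 4026 CPM in the other mutant inputs. The wupA mRNA had 2041 CPM in mutant Fmr1 replicate 1, and 816 to 861 CPM in the other mutant Fmr1 libraries.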

How the results depend on the processing

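Counts of called muscle genes stayed within 1.5 times of those reported with other size factors, without the low-count filter, by DESeq2, with replicate blocks and without the 3 IgG libraries under 500000 counts (chosen after seeing the data). They moved in models of the compared groups alone, to 2 for mutant Fmr1 over IgG and 2 for mutant over wild-type input, and in replicates 1, 5 and 7 alone, to 2 for mutant Fmr1 over IgG, 4 for mutant Fmr1 over input and 2 for mutant IgG over input. The cause was not tested beyond the fewer libraries. A count within 1.5 times can hide a changed call. By edgeR adjusted p, RLE size factors ended 3 calls (Tm2 in mutant Fmr1 over input, Mlc1 and Tm2 in wild-type IgG over input), upper-quartile factors and DESeq2 those of Mlc1 and Tm2 in wild-type IgG over input, and the missing filter that of wupA in mutant Fmr1 over input, while DESeq2 added Mlc2 in wild-type Fmr1 over IgG, all with values given with the results. The compared groups alone also ended the calls of Tm2 (0.83, 0.0800), up (1.33, 0.0962) and Prm (0.96, 0.0800) in mutant Fmr1 over IgG, and of wupA and bt in mutant Fmr1 over input, and added wupA in mutant IgG over input (−0.84, 0.0283). Replicates 1, 5 and 7 alone ended the calls of Tm2, bt and Prm in mutant Fmr1 over IgG, of Mhc, Tm2, wupA and bt in mutant and Tm2 and wupA in wild-type Fmr1 over input, and of Mhc and Mlc2 in mutant and Tm2 and wupA in wild-type IgG over input (adjusted p of 0.0579 to 0.544). Leaving out 1 library gave 2 to 5 for mutant Fmr1 over IgG. The replicate block gave 5 genes there, 8 for mutant and 8 for wild-type Fmr1 over input, and beside the changes given with the results changed no other call where numbers pair the libraries. Where they do not, bt passed in wild-type Fmr1 over IgG with the block by genotype and number (−0.43, edgeR adjusted p = 0.0340).

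With RLE size factors the median of all genes over IgG shifted to −0.15 in the mutant and −0.25 in the wild type. Of the values reported as called, 0 changed sign under any setting run. RLE size factors gave Mhc −0.10 and wupA −0.067 in mutant Fmr1 over IgG, Mlc1 0.015 in the genotype difference over IgG and Tm1 0.036 in wild-type IgG over input. Upper-quartile factors gave Mhc −0.084 and wupA −0.039 in mutant Fmr1 over IgG, Mhc −0.014 and Tm2 −0.0010 in the genotype difference over input and Tm1 0.044 in wild-type IgG over input. Without the low-count filter Mlc1 was 0.0040 in the genotype difference over IgG. The compared groups alone gave Mhc −0.046 and wupA −0.017 in mutant Fmr1 over IgG, Mlc1 0.016 in the genotype difference over IgG, Mhc −0.020 and Tm2 −0.012 in the genotype difference over input and Tm1 0.010 in wild-type IgG over input. The replicate block gave Mhc −0.029 in the genotype difference over input and up −0.19 in wild-type IgG over input. The block by genotype and number gave Mhc −0.0049 and sls −0.027 in the genotype difference over input and up −0.21 in wild-type IgG over input. Replicates 2 and 3 alone gave wupA −0.34 in mutant and −0.16 in wild-type Fmr1 over IgG, Mlc1 0.070 in the genotype difference over IgG, Tm2 −0.13 and sls −0.21 in the genotype difference over input and Tm1 0.031 in wild-type IgG over input. Replicates 1, 5 and 7 alone gave Mlc2 0.023 and Tm1 0.025 in the genotype difference over IgG, Mhc −0.19, bt 0.0025 and Prm −0.059 in that over input, and up −0.031 in mutant and −0.49 in wild-type IgG over input. Without the shallow IgG libraries Mhc was −0.025 in mutant and Tm1 0.071 in wild-type Fmr1 over IgG, and up −0.77 and Prm −0.19 in wild-type IgG over input. DESeq2 gave Mhc −0.10 and wupA −0.069 in mutant Fmr1 over IgG, Mlc1 0.016 in the genotype difference over IgG and Tm1 0.036 in wild-type IgG over input.

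Leaving out each library in turn, values whose sign turned ranged as follows. In the genotype difference over input these were Mhc −0.22 to 0.14, Mlc1 −0.029 to 0.26, Tm2 −0.18 to 0.17, up −0.023 to 0.48, wupA −0.41 to 0.33, bt −0.25 to 0.14, sls −0.15 to 0.21 and Prm −0.13 to 0.20. In that over IgG they were Mlc1 −0.22 to 0.20, Mlc2 −0.20 to 0.11, Tm1 −0.40 to 0.025, up −0.86 to 0.42 and wupA −0.59 to 0.11. Over IgG, mutant Fmr1 gave Mhc −0.15 to 0.27 and wupA −0.45 to 0.23, and wild-type Fmr1 Tm1 −0.23 to 0.043 and wupA −0.030 to 0.36. IgG over input gave Tm1 −0.24 to 0.18 and Tm2 −0.32 to 0.013 in the mutant, and Tm1 −0.22 to 0.052, up −0.58 to 0.28 and Prm −0.14 to 0.28 in the wild type.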
